A study of Mus musculus with 44 samples.

Results

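The stretch described covers 115 kb of chromosome 7 (chr7:110860000-110975000, mm9), on the side of the adult β-globin genes that lies away from the locus control region. It was chosen by position alone, as every DpnII restriction fragment that starts and ends within these limits, so no interaction count entered the choice. The fixation table lists 253 such fragments of 573960 in all, and the low-input table lists 255 of 177756. Of these, 253 fragments are listed in both tables. Interactions were counted from the promoters of Hbb-b1 and Hbb-b2 together. Their viewpoint fragments, seen as unlisted gaps, lie at chr7:110961283-110963273 (outer viewpoint) and at chr7:110975292-110977138 (inner viewpoint), with their middles 13.94 kb apart. The stretch therefore holds the interval between the promoters, the immediate surroundings of the outer viewpoint and about 100 kb beyond it.

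All libraries came from primary erythroid cells, selected for ter-119 from spleens of female C57BL/6 mice that had been given phenylhydrazine, a drug that causes anaemia and so expands erythroid cells. In 14 NG Capture-C libraries, 2 technical replicates each, cells had been fixed with 0, 0.5, 1, 2, 3, 4 or 5% formaldehyde. The unfixed sample had been homogenised in the digestion water without the later centrifugation, so it differed in more than fixation. In 18 low-input libraries, 200, 100 or 50 ng of 3C library from cells fixed with 2% formaldehyde was processed with LI-Capture-C (sonication and ligated adaptors) or Tag-Capture-C (a transposase), 3 libraries each. The labels do not tie the libraries to single animals. The paper calls the 3 low-input libraries of a group biological replicates in its table, and triplicate aliquots of 3C library in its text. In the low-input series p-values cover the spread between libraries, which may be technical. The permutation tests over formaldehyde and the main edgeR trend took each concentration as 1 point. Their p-values do not measure the spread between libraries. Counts of interactions carry no expression markers by which the cell type could be checked.

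Adult β-globin genes are transcribed at very high levels in erythroid cells, and their promoters contact the locus control region, a cluster of enhancers upstream of the embryonic globin genes. In 3C methods, fragments that were close in the nucleus are ligated, and the frequency of ligation falls with distance along the chromosome. The globin cluster is embedded in olfactory receptor genes, which are silent in erythroid cells. In the RefSeq order (GRCm38.p6), the genes that follow Hbb-bt away from the locus control region are Olfr67, Olfr68, Olfr69, Olfr630, Olfr629, Olfr628 and Olfr243. These genes were not placed on single fragments, because the annotation used here is of another build than the counts.

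The promoters at the viewpoints set what every count below is measured against. RefSeq gives promoter sequences for Hbb-bt and Hbb-bs, the adult β-globin genes of the C57BL/6 haplotype, whose starts lie 14.01 kb apart. The 250 bases before each start (GRCm38.p6, minus strand) are chr7:103813924-103814173 and chr7:103827929-103828178. Capitals mark CACCC and CCAAT boxes, searched as CACCC or GGGTG and as CCAAT or ATTGG.
Hbb-bt promoter: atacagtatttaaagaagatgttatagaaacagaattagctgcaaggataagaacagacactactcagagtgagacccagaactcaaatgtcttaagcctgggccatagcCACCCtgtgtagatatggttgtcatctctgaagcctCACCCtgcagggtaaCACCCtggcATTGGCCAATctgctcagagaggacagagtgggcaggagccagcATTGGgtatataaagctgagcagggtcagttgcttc
Hbb-bs promoter: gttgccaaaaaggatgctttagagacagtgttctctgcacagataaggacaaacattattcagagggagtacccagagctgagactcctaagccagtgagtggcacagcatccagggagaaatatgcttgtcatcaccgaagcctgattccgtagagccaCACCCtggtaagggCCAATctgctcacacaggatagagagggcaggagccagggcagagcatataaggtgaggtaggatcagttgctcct
The sequences matched at 178 of 243 positions aligned without gaps (73.2%). The Hbb-bt promoter held 3 CACCC and 3 CCAAT matches, with an ATTGG and a CCAAT next to each other, and the Hbb-bs promoter held 1 of each. Of 32851 mouse promoters of this length, 52.0% held a CACCC match and 33.9% a CCAAT match. GATC, the DpnII site, occurred 0 times in the Hbb-bt block and 1 time in the Hbb-bs block. The neighbouring β-globin genes are alike in sequence, so reads of fragments within them may have been assigned to either copy.

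Depth differed strongly between the series. The fixation libraries held 40235 to 155233 unique interactions at β-globin and the low-input libraries 4564 to 28379. Libraries of 3 to 5% formaldehyde (40235 to 57640) were shallower than those of 0 to 2% (94418 to 155233), and their labels also differ in form: those of 3 to 5% carry a molecule subtype that those of 0 to 2% lack. The upper concentrations and a possible batch therefore cannot be told apart. Intervals on shares are exact 95% binomial intervals that cover counting error only.

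The stretch took a growing share of all interactions up to 2% formaldehyde and stayed near that level above it. Without fixation it held 40 and 56 interactions, which is 0.0329% (0.0235 to 0.0447) and 0.0467% (0.0353 to 0.0606) of the libraries. At 0.5% formaldehyde the share was 3.93% and 2.87%, and at 1% it was 4.81% and 8.53%. At 2% it was 10.3% and 12.5%, at 3% it was 10.6% and 10.9%, at 4% it was 11.5% and 11.7%, and at 5% it was 13.2% and 12.5%. The 2 libraries of 1% differed far beyond their counting intervals. The libraries of 3, 4 and 5% did not overlap one another, and those of 2% lay on both sides of 3 and 4%. Over the 7 concentration means, log2 share and formaldehyde gave r = 0.67 (p = 0.0526) and rho = 0.96 (p = 0.00278), both by exact two-sided permutation. The adjusted p of r, by Benjamini-Hochberg over 8 permutation tests, was 0.105. Without the concentrations farthest from the middle (0 and 5%), r was 0.84 over 5 means. Within 0 to 2% r was 0.81 and within 3 to 5% it was 0.997, with exact permutation p = 0.25 over 4 means and p = 0.333, the smallest possible, over 3.

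The share of interactions in cis rose alongside, from 6.00% and 6.25% without fixation to 69.3% and 70.1% at 5%. Taken of cis interactions alone, the stretch held 0.547% and 0.748% in the unfixed libraries, 12.2% to 12.5% at 0.5% formaldehyde, 16.9% to 19.1% at 2% and 18% to 18.9% at 5%. On this scale r with formaldehyde was 0.60 over the 7 means (exact two-sided permutation p = 0.129).

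**Figure D1:**
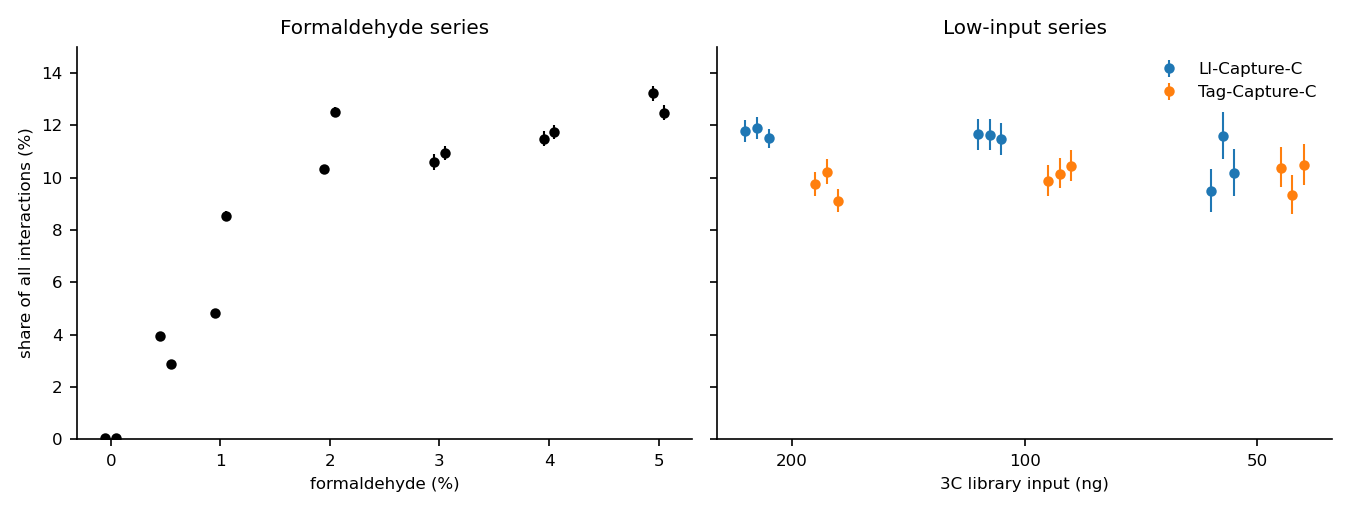
Share of all unique interactions that fell in the stretch (y axis, percent), for each fixation library against formaldehyde and for each low-input library against input. Points are libraries and bars are exact 95% binomial intervals. Shares were below 0.1% in both unfixed libraries and between 10.3% and 13.2% from 2% formaldehyde upwards.

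In the low-input series, LI-Capture-C placed a larger share of interactions in the stretch than Tag-Capture-C. At 200 ng, LI-Capture-C gave 11.8%, 11.9% and 11.5%, and Tag-Capture-C gave 9.76%, 10.2% and 9.11%. At 100 ng the values were 11.7%, 11.6% and 11.5% for LI-Capture-C and 9.88%, 10.2% and 10.4% for Tag-Capture-C. At 50 ng they were 9.49%, 11.6% and 10.2% for LI-Capture-C and 10.4%, 9.32% and 10.5% for Tag-Capture-C. The protocols did not overlap at 200 and 100 ng and overlapped at 50 ng. Averaged over inputs, the log2 difference, Tag-Capture-C minus LI-Capture-C, was -0.17, with p = 0.00325 by an exact two-sided permutation of protocols within inputs and 0.0206 after Benjamini-Hochberg adjustment over 8 tests. The differences by input were -0.28, -0.19 and -0.05 at 200, 100 and 50 ng, with exact permutation p = 0.1, p = 0.1 and p = 0.8, where 3 against 3 libraries cannot go below 0.1. With cis interactions as the denominator, the difference was -0.21 (exact permutation p = 0.00025). Without fragments within 5 kb of a viewpoint, the protocols overlapped at 100 ng. The shares there were 6.35%, 6.25% and 5.74% for LI-Capture-C and 5.48%, 5.86% and 6.06% for Tag-Capture-C. At 200 ng they still did not overlap (6.49% to 6.76% against 5.07% to 6.27%).

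The share changed little with input. Its slope was 0.09 log2 units per doubling of input in LI-Capture-C (exact two-sided permutation p = 0.0321, adjusted 0.0857) and -0.03 in Tag-Capture-C (exact permutation p = 0.41). The slopes differed by -0.11, Tag-Capture-C minus LI-Capture-C (exact permutation p = 0.15). The cis percentage of LI-Capture-C was 63.7% to 65.3% at 200 ng and 55.5% to 57.8% at 50 ng, and with cis interactions as the denominator its slope was -0.01 (exact permutation p = 0.731). Tag-Capture-C kept 61.0% to 63.2% in cis at 50 ng.

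Along the stretch, interactions were densest in the window beside the inner viewpoint, fell over the first 25 kb beyond the outer viewpoint and then ran at a low level to the end. The middle of the interval between the promoters (chr7:110965000-110969999) was less dense, with 137 and 186 interactions per kb at 2% formaldehyde beside 284 and 362 just outside the outer viewpoint (chr7:110955000-110959999). At 2% formaldehyde, per kb and 100000 interactions, the 2 libraries held 126 and 151 interactions 5 to 25 kb outside the outer viewpoint and 33.3 and 28.2 from 25 to 100 kb. In the 100 kb that follow on the same side they held 8.55 and 7.93. At 200 ng, LI-Capture-C held 139 to 148 interactions per kb from 5 to 25 kb, 31.5 to 37.3 from 25 to 100 kb and 9.30 to 10.2 beyond. Tag-Capture-C at 200 ng held 105 to 130, 29.7 to 36.3 and 9.09 to 9.95. In each of the 12 fixed and 18 low-input libraries the 25 to 100 kb zone was 2.67 to 4.29 times as dense as the 100 kb beyond it.

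**Figure D2:**
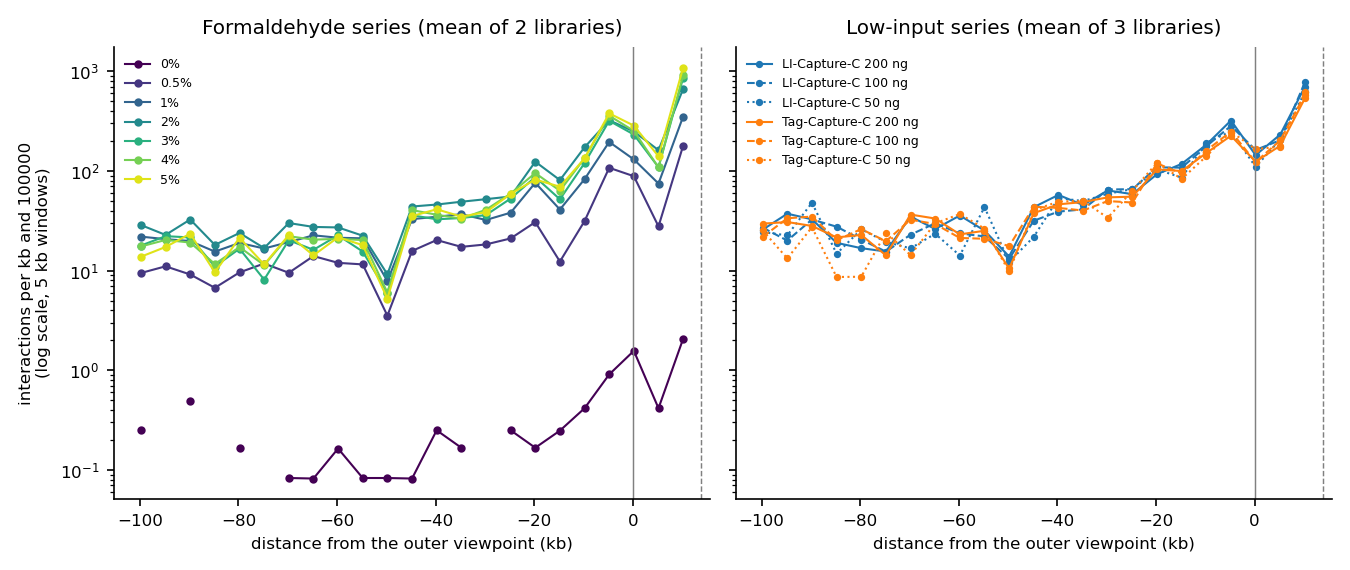
Interactions per kb and 100000 (y axis, log scale) in windows of 5 kb against distance from the outer viewpoint (x axis, kb), as means of 2 fixation or 3 low-input libraries. The solid line marks the outer and the dashed line the inner viewpoint, and windows without interactions are not drawn. All fixed profiles fell away from the outer viewpoint, with a trough near -50 kb and a raised window near -20 kb.

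Decay was measured as the slope of log2 interactions per kb on log2 distance over 19 windows of 5 kb outside the outer viewpoint, so that a more negative exponent means a steeper fall. Exponents were -0.47 and -0.58 at 0.5% formaldehyde, -0.45 and -0.78 at 1%, -0.76 and -0.99 at 2%, -0.87 and -0.96 at 3%, -0.98 and -0.95 at 4%, and -0.99 and -0.99 at 5%. The unfixed libraries gave -0.19 and -0.45, with only 16 and 28 interactions 5 to 100 kb outside the outer viewpoint. With windows of 10 kb the unfixed libraries gave -0.62 and -0.43, so their values depended on the window size. The 0.5% libraries lay above all those of 2 to 5%, and those of 1% enclosed the values of 0.5% and overlapped those of 2%. The decay was steeper at higher formaldehyde (r = -0.92 over 7 concentration means, exact two-sided permutation p = 0.00516, adjusted 0.0206 over 8 tests, rho = -1 with exact permutation p = 0.0004). Without 0 and 5% formaldehyde r was -0.94 over 5 means. A straight line through the means of 0.5 to 5%, without the unfixed sample, had a slope of -0.10 per percent. Within 0 to 2%, the unfixed sample included, r was -0.99 (exact permutation p = 0.0417, the smallest possible over 4 means). That value needs the unfixed mean, which rests on few interactions and changed with the window size. Within 3 to 5% r was also -0.99, where 3 means cannot give an exact permutation p below 0.333.

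In the low-input libraries the exponents ran from -1.12 to -0.75. The 200 ng libraries gave -0.84, -0.91 and -0.94 with LI-Capture-C and -0.92, -0.75 and -0.85 with Tag-Capture-C. The 3 Tag-Capture-C libraries of 50 ng (-1.01, -1.09 and -1.05) lay below all 6 Tag-Capture-C libraries of 200 and 100 ng. They rest on only 288, 228 and 295 interactions 5 to 100 kb outside the outer viewpoint. The LI-Capture-C libraries of 50 ng gave -0.99, -0.84 and -1.12, which overlapped those of 200 ng. The protocols overlapped, with a mean difference of 0.03, Tag-Capture-C minus LI-Capture-C (exact two-sided permutation p = 0.411). A single slope did not describe the whole stretch, since windows about 90 kb and more from the viewpoint lay on average above the line.

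The interval between the promoters held a larger part of the stretch at 3 to 5% formaldehyde than at 0.5 to 2%, a difference that was not tested. It held 57.5% and 46.4% of the few interactions without fixation, 36.0% and 43.8% of the stretch's interactions at 0.5%, 36.4% and 41.5% at 1%, 41.6% and 48.9% at 2%, 52.7% to 53.9% at 3 and 4%, and 57.4% and 56.5% at 5%. The window next to the inner viewpoint (chr7:110970000-110974999) held 193 and 166 interactions per kb and 100000 at 0.5%, 555 and 777 at 2%, and 1095 and 1090 at 5%. Over the same range the 25 to 100 kb zone rose from 15.9 and 8.79 per kb at 0.5% to 33.3 and 28.2 at 2%, and was 23 and 23.2 at 5%. In that inner window, LI-Capture-C gave 676, 752 and 674 at 200 ng and Tag-Capture-C gave 541, 517 and 550, with no overlap.

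The sides of the β-globin genes were compared as the log2 ratio of interactions 5 to 100 kb outside the outer viewpoint over those 5 to 100 kb beyond the inner viewpoint, on the locus control region side. The ratio was below 0 in every library, so the locus control region side always held more. It was -1.15 and -1.46 at 0.5% formaldehyde, -1.29 and -1.76 at 1%, -1.69 and -1.89 at 2%, and between -2.47 and -2.34 from 3 to 5%. The 6 libraries of 3 to 5% lay below the 6 of 0.5 to 2% without overlap, and they also came with the other form of label and lower depth. The unfixed libraries gave -3.55 and -2.85, from only 16 and 28 interactions on the away side and 193 and 205 on the other. Over all 7 means there was no trend past the threshold (r = -0.19, exact two-sided permutation p = 0.67), and without 0 and 5% r was -0.96 over 5 means. Leaving out the unfixed sample alone gave r = -0.94 (exact permutation p = 0.0111). Within 0 to 2%, the unfixed sample included, r was 0.49 (exact permutation p = 0.542).

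The low-input ratios lay between -2.16 and -1.52. LI-Capture-C gave -1.72, -1.82 and -1.73 at 200 ng, beside -1.71, -1.60 and -1.90 with Tag-Capture-C. The protocols overlapped at every input, and their mean difference was -0.07, Tag-Capture-C minus LI-Capture-C (exact two-sided permutation p = 0.328).

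**Figure D3:**
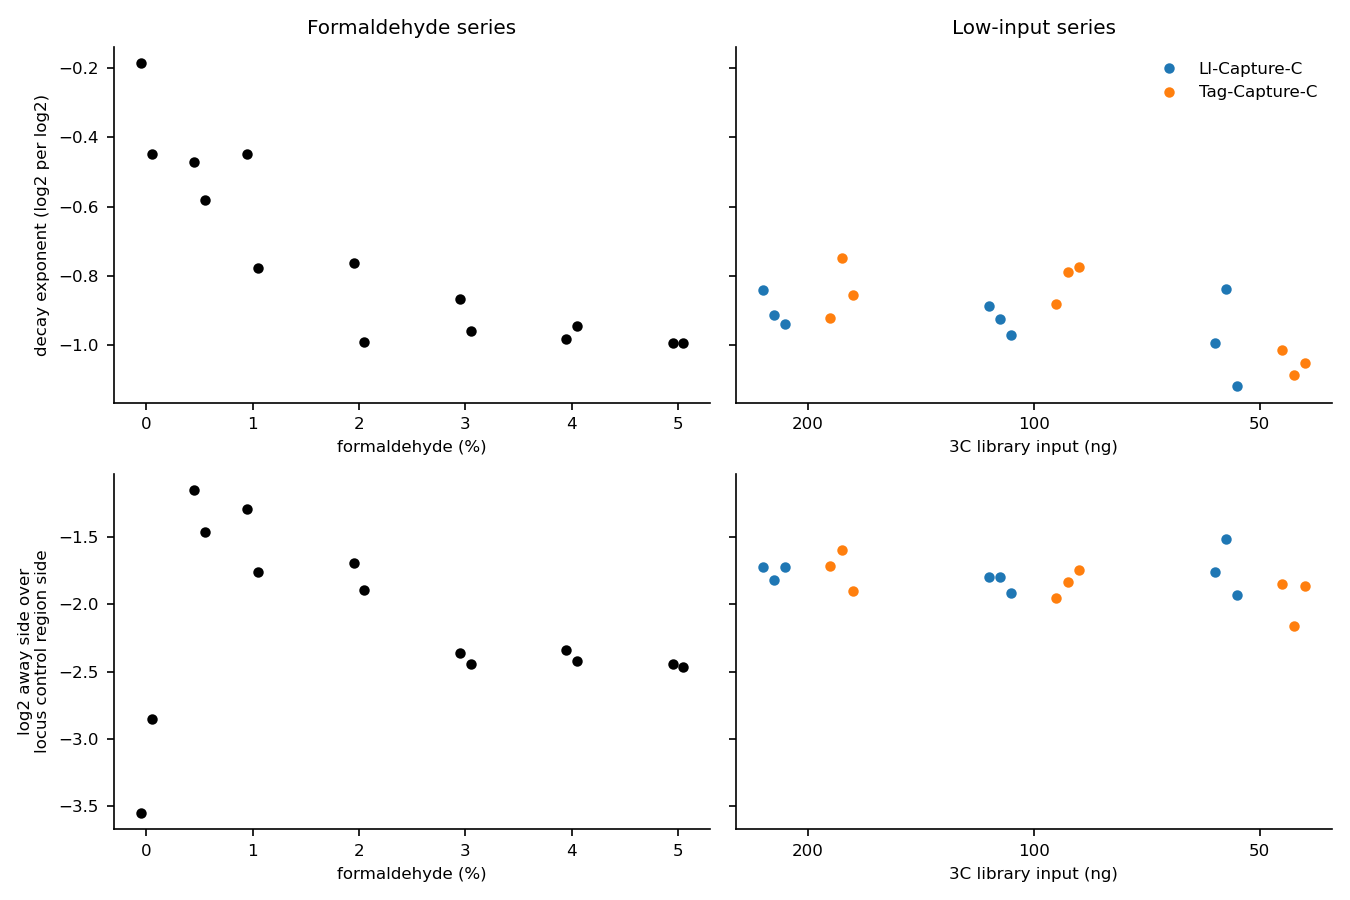
Decay exponent (upper row) and log2 ratio of the stretch over the locus control region side, 5 to 100 kb (lower row), for each library against formaldehyde (left) and input (right). Exponents fell from -0.47 and -0.58 at 0.5% to -0.99 at 5%, and the ratio was between -2.47 and -2.34 in the 6 libraries of 3 to 5%.

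Peaks were read as windows that lay above the decay line in the 12 fixed libraries. The highest was the window at chr7:110940000-110944999, about 20 kb outside the outer viewpoint, with a mean log2 deviation of 0.64 (0.27 to 0.78) and a positive value in 12 of 12 libraries. It held 38.2 and 23.2 interactions per kb and 100000 at 0.5% formaldehyde, 122 and 126 at 2%, and 73.7 and 90.5 at 5%. In the low-input libraries, which were not used to choose it, its deviation was 0.49 on average and positive in 16 of 18.

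This window exceeded its neighbour nearer to the viewpoint in the fixed libraries. The neighbour (chr7:110945000-110949999) held 12.7 and 12.0 per kb at 0.5%, 65.8 and 96.3 at 2%, and 67.8 and 71.4 at 5%, below the raised window in every fixed library. In LI-Capture-C at 200 ng the neighbour gave 144, 107 and 103 and the raised window 70.4, 106 and 102. In the other 5 low-input groups the raised window had the higher mean, from 109 against 108 (LI-Capture-C, 100 ng) to 121 against 83.2 (Tag-Capture-C, 50 ng). The neighbour's mean deviation was -0.44 in the fixed libraries, below the line in all 12, and -0.04 in the low-input libraries, with 9 of 18 above the line.

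Among the 11 fragments of the raised window, a pair held the most interactions. The fragment chr7:110941709-110943025 (1317 bp) held 65.7 and 42.2 of 100000 interactions at 0.5% formaldehyde, 160 and 140 at 2% and 59.3 and 60.9 at 5%. The fragment chr7:110940626-110941595 (970 bp) held 38.0 and 26.4 at 0.5%, 107 and 86.1 at 2% and 61.1 and 75.1 at 5%. Both had their highest mean at 2%, although a library of 1% and both libraries of 4%, respectively, lay above the lower library of 2%. Their mean in LI-Capture-C was 93.6 and 83.1, and in Tag-Capture-C 115 and 76.4.

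The next highest windows, chr7:110870000-110874999 and chr7:110865000-110869999, lay about 90 and 95 kb out, with mean deviations of 0.48 and 0.45. They were above the line in 11 and 12 of 12 fixed libraries, and in 17 and 13 of 18 low-input libraries. Their level was nevertheless low: the first held 33.2 and 32 interactions per kb at 2% formaldehyde. Its strongest fragment, chr7:110872926-110873494, held 1.06 to 24.5 of 100000 interactions over the fixed libraries. With the outermost window (mean 0.40) they are all the windows from about 90 kb outwards, where a single slope did not describe the decay. Local peaks and a misfit of the line were not told apart there. Next to them, chr7:110875000-110879999 lay below the line in 12 of 12 fixed libraries (mean -0.38).

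The lowest window was chr7:110910000-110914999, about 50 kb outside the outer viewpoint, with a mean deviation of -1.90 (-2.29 to -1.43) and 0 of 12 fixed libraries above the line. It held 4.75 and 2.32 interactions per kb at 0.5% formaldehyde, 10.3 and 8.08 at 2% and 4.81 and 5.68 at 5%. The low-input libraries gave a deviation of -1.38 there, again with 0 of 18 above the line. The window holds only 4 fragments, of which chr7:110909821-110913168 is 3348 bp long. That fragment had 69 interactions over the 12 fixed libraries, and the other 3 had 131, 61 and 71. The adjoining windows, farther out and nearer, hold 9 and 13 fragments. Summed counts were 332 here beside 921 and 1673 in the fixed libraries, and 146 beside 278 and 427 in the low-input libraries. The deviations are per kb. Per fragment, the window lay below both neighbours in the fixed libraries but not in the low-input libraries.

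Over the 19 windows the mean deviation correlated with the number of fragments (r = 0.46 in the fixed and 0.55 in the low-input libraries). Without the lowest window r was 0.18 and 0.37 over 18 windows. These are descriptions across windows of the same libraries. The mean deviations of the fixed and the low-input libraries correlated with r = 0.90, and with r = 0.77 without the lowest window. Both series share the cell type, the enzyme and the fragments.

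**Figure D4:**
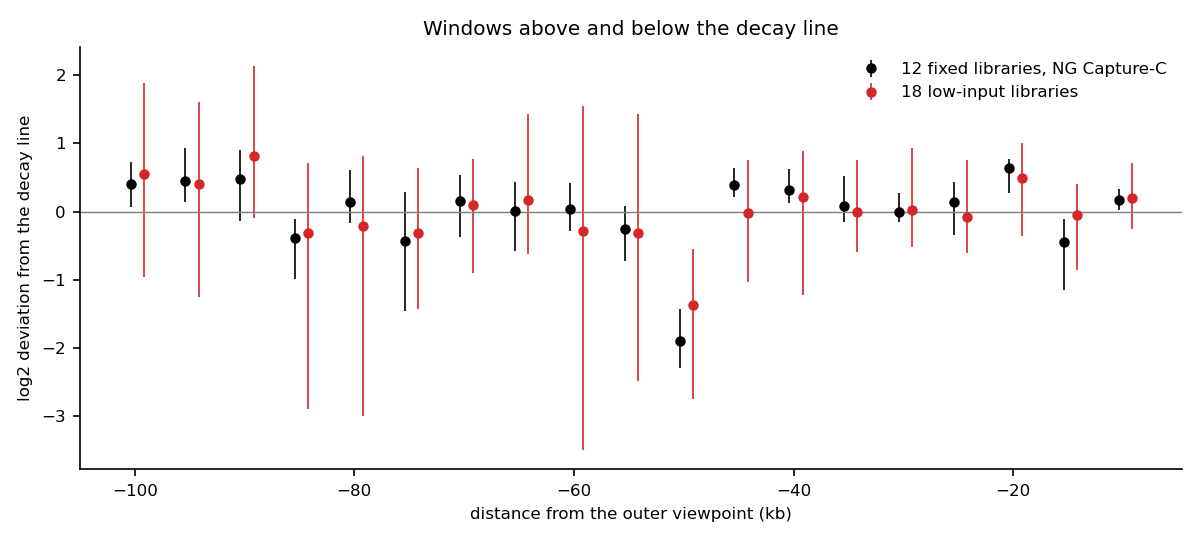
Log2 deviation from each library's decay line (y axis) for windows of 5 kb against distance from the outer viewpoint (x axis, kb). Points are means and bars run from the lowest to the highest library, for the 12 fixed and the 18 low-input libraries. The window near -50 kb was below 0 in all 30 libraries and the window near -20 kb was above 0 in 12 fixed and 16 low-input libraries.

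Beyond 5 kb from either viewpoint, the fragments with the highest mean share in the fixed libraries were chr7:110970617-110971167 and chr7:110970418-110970616 between the promoters, and chr7:110955665-110956602, chr7:110956872-110957190 and chr7:110956603-110956871 just outside the outer one. Over the 12 fixed libraries the first held 30.6 to 213 of 100000 interactions (median 134) and the third 47.5 to 213 (median 134). The first gave 276, 319 and 240 in LI-Capture-C at 200 ng, beside 186, 171 and 130 in Tag-Capture-C. By edgeR's quasi-likelihood test the protocols' log2 difference was -0.58 ± 0.19 (SE) for this fragment, with an adjusted p of 0.083 (Benjamini-Hochberg). The protocols did not overlap at 200 ng, and the difference did not pass the threshold over all inputs.

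The domain edge was sought as the boundary with the largest fall in interactions between the 20 kb nearer to the promoters and the 20 kb farther out. In the summed fixation libraries it lay at 110955000, 7.3 kb outside the outer viewpoint, and 10 of 12 fixed libraries gave the same place, the other 2 giving 110940000. This was the last boundary the rule allowed, next to the viewpoint. In the summed low-input libraries it lay at 110940000, 22.3 kb out, as in 8 of 18 single libraries, which ranged from 110905000 to 110955000. With both flanks outside the outer viewpoint, a rule added after the data were seen, it lay at 110940000 in 12 of 12 fixed and 11 of 18 low-input libraries, again at the last boundary allowed.

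Once the decay was taken out, the largest fall lay elsewhere. Measured on the deviations from the decay line, also a rule added later, it lay at 110915000 (47.3 kb out) in 10 of 12 fixed libraries, with a log2 step of 0.72, and at 110920000 (42.3 kb out) in the low-input mean and 3 of 18 libraries. The first of these places is the border of the lowest window. No one position was found by all rules, and none carries a test.

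Single fragments were followed across 0.5 to 5% formaldehyde with edgeR's quasi-likelihood test on the summed technical replicates. Of 253 fragments, 203 passed the filter of a mean count of 10. With TMM factors, which set the level of most fragments to no change, 10 rose and 47 fell (adjusted p under 0.05, Benjamini-Hochberg), where over all 501 fragments tested, 17.4% rose and 18.8% fell. Scaled to library totals instead, 13 rose and 0 fell, where 18.4% of all tested fragments rose and 0.2% fell, and the median log2 change per percent of formaldehyde over all tested fragments moved from 0.00 to 0.29. The split into rising and falling fragments therefore depended on the scaling. The remaining fits took technical replicates as separate samples, so their p-values treat them as independent. With the form of the labels as a term, 0 of 137 tested fragments were called by edgeR (0% of all 359), with 19 at an unadjusted p under 0.05. Within 0.5 to 2%, 2 of 166 were called (0.743% of all 404), and within 3 to 5%, 0 of 92 were called by edgeR (0% of all 313), with 4 at an unadjusted p under 0.05.

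The calls made with TMM factors were unevenly placed. Between the viewpoints 6 of 29 tested fragments rose and 2 fell, with a median log2 change of 0.07 per percent. Up to 25 kb outside, 4 of 58 rose and 7 fell (median 0.03). From 25 kb outwards, 0 of 116 rose and 38 fell (median -0.24). Over all 501 fragments tested 17.4% rose and 18.8% fell, with a median of 0.00. With library totals 0 fragments of the stretch fell, so this placement of falling fragments holds for TMM factors only.

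The 3 rising fragments with the lowest adjusted p lay near the viewpoints. The fragment chr7:110957191-110957451, 4.96 kb outside the outer viewpoint, held 26.9 and 16.9 of 100000 interactions at 0.5%, 92.1 and 143 at 2% and 252 and 248 at 5% (log2 change 0.43 ± 0.07 per percent, SE, edgeR adjusted p = 0.000121). Its neighbour chr7:110957452-110957504 rose by 0.38 ± 0.07 (edgeR adjusted p = 0.000121). The fragment chr7:110973476-110973653, beside the inner viewpoint, held 61.7 and 44.3 at 0.5%, 194 and 312 at 2% and 633 and 694 at 5% (0.45 ± 0.08, edgeR adjusted p = 0.000247). In all 3 the 2 libraries of 5% lay above those of 0.5, 1 and 2%. At 3% chr7:110957191-110957451 held 236 and 209, and at 4% 251.5 and 286, so it was no higher at 5% than at 4%. The fragment chr7:110973476-110973653 held 567 and 579 at 3% and 556 and 637 at 4%. Depth and the form of the labels also changed between 2 and 3%, and within 3 to 5% edgeR called 0 fragments of the stretch.

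The 3 falling fragments with the lowest adjusted p lay farther out. The fragment chr7:110921051-110921910, 40.8 kb outside, held 21.4 and 23.2 of 100000 interactions at 0.5%, 38.6 and 18.4 at 2% and 13.0 and 6.09 at 5% (-0.67 ± 0.10 per percent, SE, edgeR adjusted p = 4.8e-05). The fragment of the raised window, chr7:110941709-110943025, changed by -0.40 ± 0.06 (edgeR adjusted p = 4.9e-05), and chr7:110952841-110953575 by -0.43 ± 0.07 (edgeR adjusted p = 7.5e-05). The last held 36.4 and 24.3 at 0.5%, 78.6 and 68.5 at 2% and 22.2 and 32.5 at 5%, so that its share of all interactions was highest at 2%. These falls are relative to the other tested fragments, and with library totals 0 fragments of the stretch fell.

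**Figure D5:**
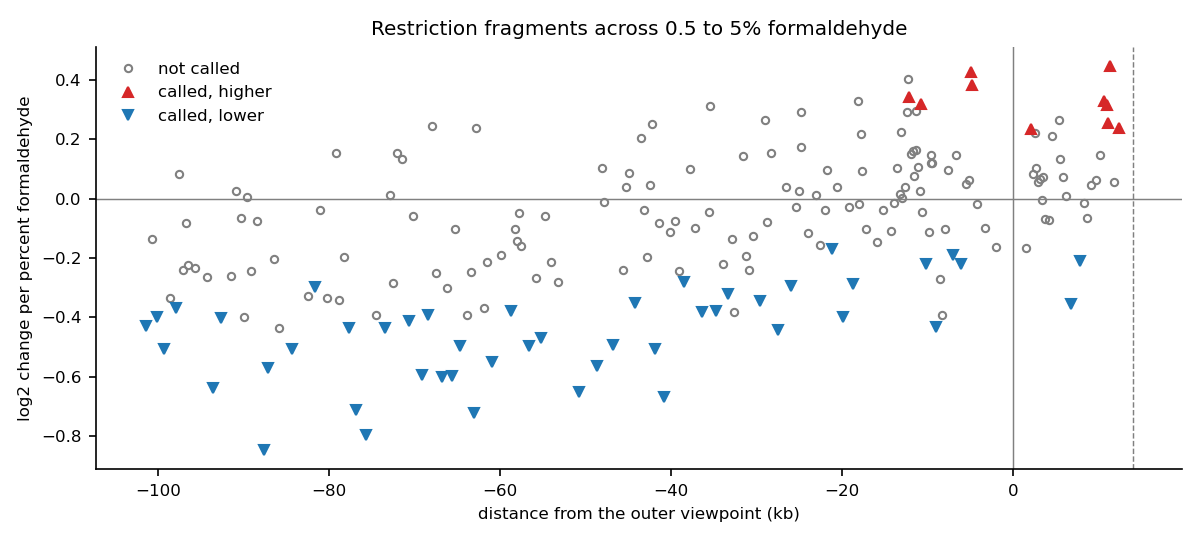
Log2 change per percent of formaldehyde over 0.5 to 5% with TMM factors (y axis) of the 203 tested fragments against distance from the outer viewpoint (x axis, kb). Triangles are fragments called by edgeR at an adjusted p under 0.05, 10 higher and 47 lower, open circles were not called, and the vertical lines mark the viewpoints. From 25 kb outwards 38 fragments were called lower and 0 higher, whereas scaling to library totals gave 13 higher and 0 lower over the whole stretch.

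Between the protocols, 31 of the 255 fragments passed the filter and 0 were called by edgeR, with 6 at an unadjusted p under 0.05. Over all 107 tested fragments 0% were higher and 0.935% lower in Tag-Capture-C. The median log2 difference was -0.04 in the stretch and 0.07 over all tested fragments. DESeq2 called 2 fragments of the stretch, both lower, where 2.8% of all tested were lower. With library totals edgeR called 3, all lower, where 5.61% of all tested were lower.

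Between 200 and 50 ng, 1 of 31 tested fragments was called, higher at 200 ng. It was the only call among all 107 tested (0.935% higher and 0% lower). This fragment, chr7:110973295-110973475 between the promoters, held 303, 378 and 247 of 100000 interactions in LI-Capture-C at 200 ng and 40.1, 81.3 and 87.6 at 50 ng. In Tag-Capture-C it held 204, 189 and 334 at 200 ng and 145, 135 and 213 at 50 ng. The inputs did not overlap with LI-Capture-C and overlapped with Tag-Capture-C. The log2 difference over both protocols, 200 minus 50 ng, was 1.28 ± 0.30 (SE, edgeR adjusted p = 0.00323). With LI-Capture-C alone edgeR called 2 fragments of the stretch (2.8% of all tested), and with Tag-Capture-C alone 0 (0%).

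Replicate profiles over the stretch grew noisier with lower input. Over 227 fragments 5 kb or more from the viewpoints, r-values between libraries of a group were 0.83 to 0.86 in LI-Capture-C at 200 ng, 0.62 to 0.66 at 100 ng and 0.40 to 0.52 at 50 ng. Tag-Capture-C gave 0.74 to 0.83, 0.62 to 0.76 and 0.47 to 0.60. In the fixation series the r-value of the replicates was 0.05 without fixation and 0.88 to 0.94 at 0.5% to 5%. Mean profiles correlated with that of 2% formaldehyde at r = 0.84 for 0.5%, 0.94 for 1%, 0.93 for 3% and 4% and 0.94 for 5%, and at 0.39 for the unfixed cells. The points share fragments and their lengths, and depth fell with input: 80.8% to 85.5% of the fragments held a count in LI-Capture-C at 200 ng and 43.1% to 45.1% at 50 ng.

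The series also differed next to the viewpoints. The fragments on each side of the outer viewpoint, chr7:110959283-110961282 and chr7:110963274-110964281, held 247 and 224 and 338 and 277 interactions in the libraries of 2% formaldehyde and 0 in all 18 low-input libraries. Absolute shares of the tables are therefore given side by side only. Between the promoters, chr7:110967225-110967442 held 5 and 8 interactions at 2% formaldehyde and 10, 21 and 16 in the much shallower LI-Capture-C libraries of 200 ng, which is 5.13 and 65.3 of 100000 interactions on average. This difference between the series was not tested.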

How the data were processed

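Unique interactions of the pooled Hbb-b1 and Hbb-b2 viewpoints were analysed in 14 fixation and 18 low-input libraries; the libraries of the cell number series, whose labels list α-globin only, were not used. The deposited values are counts per DpnII fragment, without normalization, from which the authors had removed PCR duplicates (for low-input libraries also near-identical ends). The submitters' processing notes name mm9, Trim Galore and Bowtie; versions are not given in the sources used here. Duplicate filtering sets how many interactions count as unique.

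Python 3.11.15, NumPy 2.4.6, pandas 2.3.3, SciPy 1.17.1, edgeR 4.0.16 and DESeq2 1.42.0 in R 4.3.3 were used. Shares were scaled to 100000 interactions per library, fragments were placed in 5 kb windows by their middle, and 0.5 was added to counts before log2. Group values were tested by exact two-sided permutation and fragments with edgeR, as an alternative DESeq2, on all fragments with a mean count of at least 10 (at most 100 kb long). On simulated counts edgeR found 73 of 125 fragments with a log2 change of 0.3 per percent among 501, calling 5 unchanged ones, and 26 of 26 with a log2 difference of 1 between protocols among 107, calling 3 unchanged ones.

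The named windows and fragments were those with the highest or lowest mean deviation, the highest mean share, or the smallest adjusted p. The members and lists were chosen with earlier results of these data known. Replicates with the same number were not paired: their deviations correlated at -0.32 to 0.21 in the low-input series and at -0.098 to 0.46 in the fixation series, where 2 replicates cannot settle it.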

Additional observations from a re-analysis of the deposited data

How the results depend on the processing

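The trend of the share with formaldehyde passed the threshold as Spearman's rho (0.96), without the unfixed sample (r = 0.83) and with replicate 1 alone (r = 0.68, against 0.66 with replicate 2 alone), but not of cis interactions (r = 0.60), without fragments within 5 kb of a viewpoint (r = 0.61) or within either range of concentrations. The decay exponent gave r = -0.99 within 3 to 5%, where no p below the threshold was possible. The ratio of the sides gave r = 0.0022 over 10 to 50 kb, -0.94 without the unfixed sample and 0.49 within 0 to 2%. The protocol difference in share was -0.28, -0.19 and -0.047 at 200, 100 and 50 ng alone; the decay difference was -0.067 at 50 ng and the ratio difference 0.017 at 200 ng. The input slope of LI-Capture-C was -0.011 of cis interactions and 0.059 without fragments within 5 kb of a viewpoint; leaving out single libraries gave 0.052 to 0.12, and it lost its unadjusted call without replicate 1 or 2 of 200 ng, replicate 3 of 100 ng or replicate 1 of 50 ng (0.052). The slope of Tag-Capture-C was 0.035 without fragments within 5 kb.

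Against 57 calls in the formaldehyde trend, library totals gave 13, the form of the labels as a term 0, 0.5 to 2% alone 2 and 3 to 5% alone 0 (the last pair chosen after seeing the data), and leaving out 1 concentration 31 to 57, with 31 without 0.5% and 33 without 1%. Between protocols, against 0 calls, DESeq2 gave 2, library totals 3, a mean count of 5 or of 20 each 2, 200 ng alone 1, and leaving out single libraries 0 to 2. Between inputs, against 1 call, DESeq2 gave 2, LI-Capture-C alone 2, Tag-Capture-C alone 0 and leaving out single libraries 1 to 3, with 3 without replicate 1 of LI-Capture-C at 50 ng. The edge moved from 110955000 to 110945000 with flanks of 30 kb, to 110940000 with both flanks outside the viewpoint and to 110915000 on the deviations (low-input 110920000). Under both flank rules the place found was the last boundary allowed, so 110955000 could not be returned. The cause of the other changes was not tested.

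The labels do not pair the libraries by number, and in the low-input series not every pair correlated. In the fixation series same-numbered libraries of 0.5, 1 and 2% correlated at 0.19 to 0.46. With a replicate block the difference in share between protocols was -0.17 (exact sign-flip permutation p = 0.0195) and edgeR called 55 fragments in the formaldehyde trend, 0 between protocols and 1 between inputs. At 50 ng 464 to 646 interactions fell in the stretch per library, and single distant fragments did not pass the count filter in the low-input series.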
